A study of Mus musculus with 14 samples.

Results

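The genes described here are 40 genes of the cell cycle and of neural progenitors, picked by name from the 52459 gene symbols of the deposited gene matrices. They fall into 14 genes of G1 and DNA replication, 18 genes of mitosis and 8 genes of progenitors, and all 40 passed the filter on low counts. RNA was sequenced in 14 libraries of primary cortical neurons taken from mouse embryos at stage E16.5. The mutants carry an altered serine 1382 of BRG1, the motor subunit of BAF chromatin remodellers, which Smarca4 encodes. The study sets these 2 mutants against wild type in resting and depolarised neurons.

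All cultures were silenced on day 5 with 1 µM TTX, a sodium channel blocker, and 100 µM APV, an NMDA receptor blocker. On day 6, cultures received 50 mM KCl for 1 h, which depolarises neurons, or stayed basal. Brg1-S1382E knock-in cultures (SE) gave 2 KCl and 2 basal libraries, and their wild-type littermate controls gave 1 of each. Brg1-S1382A knock-in cultures (SA) gave 2 KCl and 2 basal libraries, and their wild-type littermate controls gave 2 of each. A mutant and its littermate controls are called a line below, so the SE line holds 6 libraries and the SA line 8. Per-library values run through the mutant cultures 1 and 2 and then the wild-type cultures of a line. The labels say neither whether a knock-in is homozygous, nor how many embryos went into a culture, nor whether libraries of one number share a culture. A KCl and a basal library of one genotype and number are called a culture here for short. P-values therefore measure only the spread between these samples, which may be technical.

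Cortical neurons are postmitotic, whereas the radial glia and intermediate progenitors that produce them divide in the ventricular and subventricular zones. Cyclins and cyclin-dependent kinases drive the cycle. E2F factors switch on the replication genes at the G1 to S transition, and the DREAM and MuvB complexes switch the mitotic genes through CHR elements in their promoters. A dissociated embryonic cortex also holds dividing cells other than neuronal progenitors, among them glial precursors, vascular cells and meningeal fibroblasts. In a bulk library, fewer dividing cells and less RNA of these genes per cell cannot be told apart.

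The 150 bases before the RefSeq transcription start (GRCm38.p6) are shown for 4 mitosis genes and 1 replication gene that fell together between the lines, picked among genes with matches, and for Eomes, which went the other way. The stretches lie at chr7:135716380-135716529 (minus strand, Mki67), chr11:99024190-99024339 (minus strand, Top2a), chr10:69352913-69353062 (minus strand, Cdk1), chr19:37376232-37376381 (plus strand, Kif11), chr1:128359706-128359855 (minus strand, Mcm6) and chr9:118478039-118478188 (plus strand, Eomes). Each is read 5′ to 3′ on the strand of the gene. Capitals mark matches, on either strand, to the CHR core, spelled TTTGAA or with the variant letters TTCGAA, and to an E2F core. The first E2F spelling searched was TTCGCGC. The second spelling was TTGGCGC and the last spelling was TTCCCGC. In Mcm6 matches on opposite strands overlap and run into one block.
Mki67: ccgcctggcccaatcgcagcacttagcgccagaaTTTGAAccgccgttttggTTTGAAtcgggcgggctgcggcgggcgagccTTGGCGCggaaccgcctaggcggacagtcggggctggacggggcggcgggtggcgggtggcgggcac
Top2a: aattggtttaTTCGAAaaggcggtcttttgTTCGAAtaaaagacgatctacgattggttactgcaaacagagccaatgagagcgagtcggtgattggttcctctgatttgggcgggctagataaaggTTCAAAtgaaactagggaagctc
Cdk1: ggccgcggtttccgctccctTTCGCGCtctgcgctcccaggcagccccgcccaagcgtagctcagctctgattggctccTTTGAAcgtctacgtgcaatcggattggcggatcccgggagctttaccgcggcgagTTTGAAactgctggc
Kif11: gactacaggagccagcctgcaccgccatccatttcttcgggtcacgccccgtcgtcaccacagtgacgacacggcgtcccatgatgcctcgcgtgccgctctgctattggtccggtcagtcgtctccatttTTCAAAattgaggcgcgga
Mcm6: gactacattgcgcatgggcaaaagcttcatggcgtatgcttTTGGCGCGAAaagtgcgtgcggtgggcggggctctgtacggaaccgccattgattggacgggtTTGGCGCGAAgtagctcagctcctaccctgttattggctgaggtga
Eomes: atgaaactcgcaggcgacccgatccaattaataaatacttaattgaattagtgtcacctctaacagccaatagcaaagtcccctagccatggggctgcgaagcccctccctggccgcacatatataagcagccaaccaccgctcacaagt

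RefSeq promoter windows of 300 bases, from 250 before to 50 after the start, were at hand for 31 of the 40 genes. These genes had 33 windows, since Mcm7 and Pax6 had more than 1. A gene was counted if any of its windows matched, whereas the share over all promoters counts each window singly. A CHR core was found in 10 of the 14 mitosis genes with a window (71.4%), in 2 of 10 replication genes and in 1 of 7 progenitor genes, against 19.2% of all 32851 promoters. An E2F core was found in 4 of the 10 replication genes (40%), in 3 of the 14 mitosis genes and in 1 of the 7 progenitor genes, against 8.07% of all promoters. CCAAT, a further element common in mitotic promoters, was found in 12 of the 14 mitosis genes, in 7 of the 10 replication genes and in 5 of the 7 progenitor genes, against 37.4% of all promoters. Eomes had neither core in its window, and nor had several genes that fell between the lines, Pax6, Nes, Vim and Birc5 among them. These are matches of letters, not measured binding sites.

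In the 14 libraries the total ran between 22625916 and 23096206 estimated counts, so that 1 CPM, the count scaled to library size, stood for 22.6 to 23.1 counts. Smarca4 itself (chromosome 9, 21616169 to 21704230, plus strand) lay between 373 and 504 CPM, which does not check the genotype labels because a changed codon need not change the amount of transcript. Of the defining markers of the labelled cell type, 10 of 10 neuronal markers were detected in all libraries, with a summed level of 6827 to 7685 CPM in the SE line and 4124 to 7204 CPM in the SA line. Both libraries of SA-line wild-type culture 1 stood apart. Slc17a7, the vesicular glutamate transporter of cortical excitatory neurons, singled out here after its values were seen, lay there at 24.4 and 24.7 CPM. It had 266 to 374 CPM in the other 6 SA-line libraries and 862 to 1042 CPM in the 6 SE-line libraries. The counts between the lines, the mutant comparison in the SA line and the KCl response of Hes1 are therefore also given without SA-line wild-type culture 1.

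The 2 lines differed in nearly all of these genes, and mitosis genes differed most. In basal cultures of the SE line over the SA line, 36 of the 40 genes fell and 1, Eomes, rose (edgeR quasi-likelihood test, adjusted p under 0.05 over 17732 genes). Among all genes tested, 45.8% were called, 25.2% falling and 20.7% rising. After KCl, 36 fell and 2, Eomes and Hes1, rose, against 48.1% called among all genes, 25.9% falling and 22.2% rising. The median log2 change of the 18 mitosis genes was -3.79 at basal and -3.65 after KCl, that of the 14 G1 and replication genes -1.72 and -1.84, and that of the 8 progenitor genes -2.53 and -2.08. The median over all genes was 0.00 at basal and -0.01 after KCl.

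A line is not a genotype effect. It holds mutants and wild types alike, and everything that differed between the 2 sets of cultures (litters, dissections, culture days, sequencing) cannot be told apart from it. A comparison of wild-type group means only, in the model of all 14 libraries, called 37 of the 40 genes at basal and 36 after KCl. Of all genes tested it called 28.6% and 31%, and mutant libraries still entered its estimate of the spread. The SE line enters there with 1 wild-type library per treatment, which is assumed to vary like the other groups. Between mutant group means only, in the same model of all 14 libraries, 35 were called at each treatment, against 30.1% of all genes at basal and 32.2% after KCl. Without SA-line wild-type culture 1, 37 were called at each, against 48.5% and 50.9% of all genes. In 36 of 40 genes all 6 SE-line libraries lay below all 8 SA-line libraries, a pattern that 20.8% of all genes tested show. The 4 exceptions were Ccnd2, E2f1, Hes1 and Eomes.

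**Figure D1:**
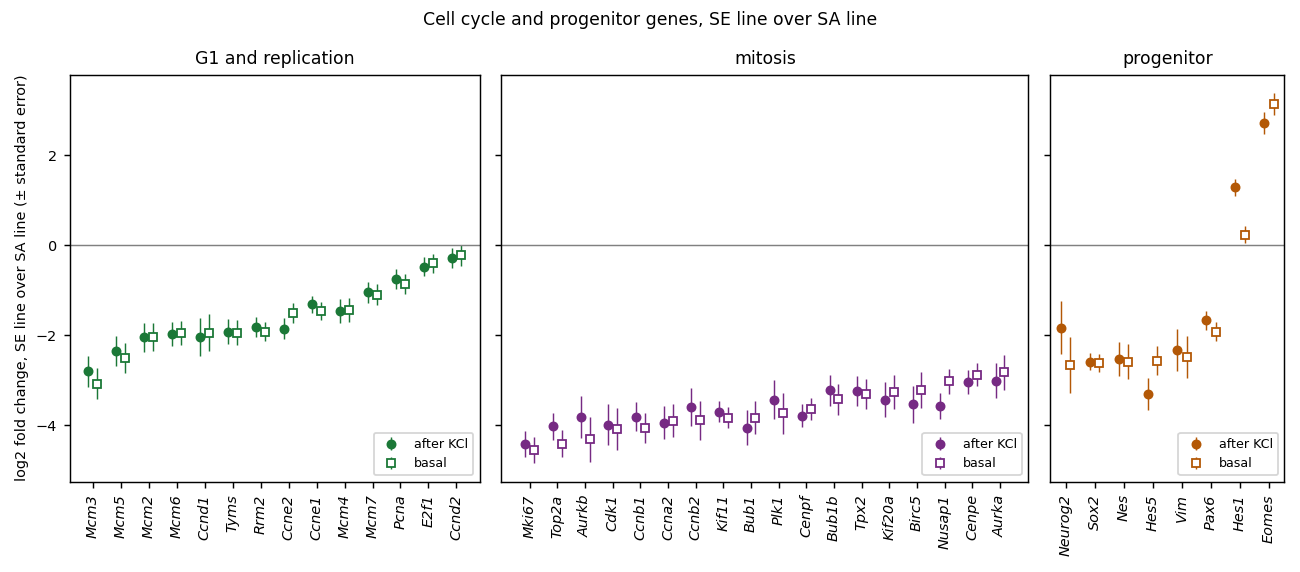
The y axis gives the log2 fold change of SE-line over SA-line cultures with its standard error from the edgeR model, for each of the 40 genes after KCl (filled circles) and at basal (open squares), ordered by the basal value within the class. All 18 mitosis genes lie between -4.55 and -2.82, and the G1 and replication genes spread up to -0.23. Eomes and Hes1 lie above 0 at both treatments, although Hes1 was not called at basal.

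Genes of G1 and replication differed widely among themselves. Ccnd2 encodes cyclin D2, a G1 cyclin strongly used by cortical progenitors, and at a median of 77.9 TPM in the SE line and 89.7 TPM in the SA line it was among the most abundant of the class per length. Its level was 226, 236 and 247 CPM after KCl and 245, 207 and 257 CPM at basal in the SE line, against 203, 288, 431 and 258 CPM after KCl and 199, 261, 421 and 267 CPM at basal in the SA line. The lines overlapped. The log2 difference was -0.23 ± 0.23 (standard error) at basal and -0.28 ± 0.23 after KCl (edgeR, adjusted p = 0.452 and 0.334). E2f1, an activator of the replication genes, lay at 10.9 to 14.4 CPM in the SE line and 12.4 to 23.8 CPM in the SA line, and did not pass either (adjusted p = 0.154 at basal and 0.0959 after KCl). Ccnd1, the other D-type cyclin of the set, did differ: its level averaged 32.0 ± 7.11 CPM in basal SE-line cultures (SD, n = 3) and 130 ± 65.0 CPM in basal SA-line cultures (SD, n = 4), a log2 difference of -1.94 (edgeR, adjusted p = 0.00445).

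The E-type cyclins, which act with CDK2 at the entry into S phase, fell in the SE line. Ccne1 fell by 1.46 on the log2 scale at basal and Ccne2 by 1.51 (edgeR, adjusted p = 0.000258 and 0.00052). The 6 subunits of the MCM helicase, which form one ring that unwinds DNA at the replication fork, all fell but not equally. Mcm3 fell most, with 6.50, 5.29 and 4.99 CPM after KCl and 4.60, 5.05 and 3.74 CPM at basal in the SE line, against 25.7, 38.4, 58.0 and 31.5 CPM after KCl and 22.8, 38.0, 53.8 and 30.5 CPM at basal in the SA line. The highest SE-line library was far below the lowest SA-line library. At basal this was 8.42-fold lower in the SE line (log2 -3.07 ± 0.35, adjusted p = 0.000133). Mcm5 was 5.69-fold, Mcm2 4.10-fold, Mcm6 3.86-fold, Mcm4 2.71-fold and Mcm7 2.14-fold lower at basal.

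Pcna, the sliding clamp of DNA polymerases and also a factor of DNA repair, was the most abundant replication gene of the SA line, with a median of 136 TPM there and 73.6 TPM in the SE line. It stood at 65.8, 60.3 and 66.7 CPM after KCl and 52.2, 50.0 and 53.4 CPM at basal in the SE line, against 88.5, 110, 144 and 97.1 CPM after KCl and 68.9, 94.7, 142 and 81.8 CPM at basal in the SA line. The lines did not overlap, but they came close, and the fold was small: log2 -0.87 ± 0.22 at basal and -0.76 ± 0.22 after KCl (edgeR, adjusted p = 0.0101 and 0.0183). Over the other settings tried, Pcna after KCl was called in 16 of 20, with an adjusted p of 0.00308 to 0.094. Rrm2, a subunit of ribonucleotide reductase, and Tyms, thymidylate synthase, both of which supply deoxynucleotides, fell by 1.92 and 1.94 at basal. Of the Tyms counts, 72.2% in the SE line and 52.9% in the SA line lay on protein-coding transcript models, the lowest shares of the 40 genes.

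The 18 mitosis genes moved as a block. Mki67 (chromosome 7, 135689784 to 135716361, minus strand), whose product Ki-67 coats mitotic chromosomes and marks cycling cells, had 6.02, 7.93 and 7.69 CPM after KCl and 6.58, 7.19 and 7.39 CPM at basal in the SE line. In the SA line it had 101, 128, 261 and 169 CPM after KCl and 108, 155, 260 and 164 CPM at basal. The lines were far apart in both treatments. At basal the level was 23.4-fold lower in the SE line (log2 -4.55 ± 0.29, edgeR, adjusted p = 7.52e-06) and after KCl 21.4-fold lower (adjusted p = 7.54e-06). Top2a (chromosome 11, 98992943 to 99024189, minus strand), the topoisomerase that untangles sister chromatids, had 7.45, 10.2 and 7.47 CPM after KCl and 6.49, 7.73 and 6.16 CPM at basal in the SE line, against 80.3, 105, 230 and 146 CPM after KCl and 93.2, 122, 230 and 139 CPM at basal in the SA line. It was 21.3-fold lower at basal (adjusted p = 9.37e-06).

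Cdk1 (chromosome 10, 69335146 to 69352938, minus strand), the kinase of mitotic entry, had the highest median per length of the class in both lines, 4.15 TPM in the SE line and 73.2 TPM in the SA line. It averaged 2.10 ± 0.351 CPM in basal SE-line cultures (SD, n = 3) and 34.2 ± 14.9 CPM in basal SA-line cultures (SD, n = 4), a log2 difference of -4.08 ± 0.47 (edgeR, adjusted p = 0.000129). Its cyclins fell too: at basal Ccnb1 was 16.7-fold, Ccna2 14.9-fold and Ccnb2 14.8-fold lower in the SE line. Kif11 (chromosome 19, 37376403 to 37421859, plus strand), the kinesin that keeps the spindle poles apart, had the lowest adjusted p of the 40 genes. Its levels were 2.99, 3.34 and 2.47 CPM after KCl and 3.43, 3.55 and 2.28 CPM at basal in the SE line, against 20.04, 28.3, 63.4 and 47.2 CPM after KCl and 28.5, 35.0, 60.8 and 41.5 CPM at basal in the SA line (basal log2 -3.84 ± 0.24, adjusted p = 5.62e-06). All SE-line libraries lay well below all SA-line libraries.

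The other mitosis genes at basal ran from 7.07-fold lower for Aurka, a kinase of centrosome maturation, to 19.8-fold lower for Aurkb, the kinase of the chromosomal passenger complex. Birc5, survivin of the same complex, was 9.26-fold lower. The spindle checkpoint kinases Bub1 and Bub1b were 14.3-fold and 10.7-fold lower, and Plk1, the Polo-like kinase, 13.3-fold. The kinetochore proteins Cenpf and Cenpe were 12.4-fold and 7.34-fold lower. Kif20a, a kinesin of cytokinesis, was 9.56-fold lower, and the spindle proteins Tpx2 and Nusap1 were 9.88-fold and 8.13-fold lower. Levels in the SE line were low but above 0 throughout: Bub1, for example, had 17 to 26 estimated counts per SE-line library and 187 to 655 per SA-line library.

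**Figure D2:**
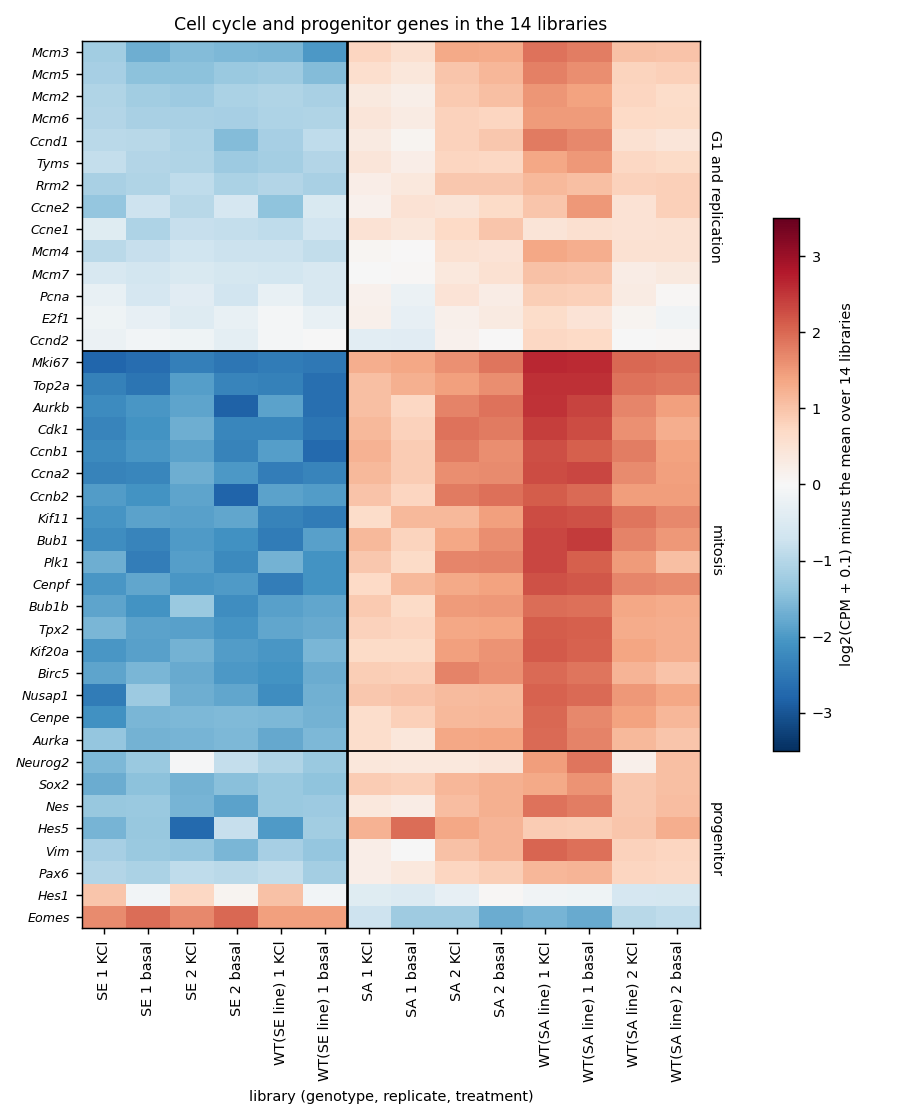
Each row is a gene and each column a library, with the SE line left of the black line, and colour gives log2(CPM + 0.1) minus the gene's mean over the 14 libraries. The mitosis block is blue in all 6 SE-line libraries and darkest red in both libraries of SA-line wild-type culture 1, while Eomes shows the opposite order and Hes1 is red in the 3 KCl libraries of the SE line.

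Progenitor genes parted in 2 directions. Sox2 (chromosome 3, 34650405 to 34652461, plus strand), the transcription factor that keeps neural stem cells undifferentiated, had 13.99, 14.7 and 18.96 CPM after KCl and 17.3, 16.9 and 17.7 CPM at basal in the SE line, against 86.2, 104, 118 and 89.4 CPM after KCl and 82.7, 111, 140 and 96.2 CPM at basal in the SA line. The lines did not overlap, and the basal log2 difference was -2.62 ± 0.19 (edgeR, adjusted p = 1.23e-05). Pax6, the patterning factor of dorsal radial glia, fell by 1.92 at basal. The intermediate filament genes Vim and Nes, used by radial glia, and in the case of Vim by fibroblasts, endothelium and astrocytes too, fell by 2.48 and 2.59.

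Vim (chromosome 2, 13573927 to 13582826, plus strand) was by far the most abundant of the 40 genes, with a median of 224 TPM in the SE line and 1158 TPM in the SA line. It had 251, 221 and 252 CPM after KCl and 228, 187 and 219 CPM at basal in the SE line, against 658, 1153, 2306 and 990 CPM after KCl and 559, 1280, 2142 and 946 CPM at basal in the SA line. Within the SA line its highest library was 4.13-fold above its lowest, the widest spread of any of the 40 genes in that line.

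Hes5 and Hes1 encode Notch-driven repressors that hold progenitors in cycle. Hes5 had 0.901, 0.371 and 0.687 CPM after KCl and 1.13, 1.68 and 1.23 CPM at basal in the SE line, against 7.06, 7.80, 5.68 and 5.96 CPM after KCl and 11.9, 7.01, 5.49 and 7.42 CPM at basal in the SA line. It fell by 2.57 at basal and 3.31 after KCl (edgeR, adjusted p = 0.000213 and 8.53e-05), on 8 to 36.6 estimated counts per SE-line library. Neurog2, the proneural factor of cortical progenitors, also fell, but on only 2 to 10 estimated counts per SE-line library and 13 to 51 per SA-line library, and after KCl it was called in only 13 of the 20 other settings.

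Eomes (chromosome 9, 118478212 to 118486132, plus strand), the T-box factor that marks intermediate progenitors of the subventricular zone, went the other way. It had 16.7, 17.1 and 14.3 CPM after KCl and 20.6, 21.1 and 14.2 CPM at basal in the SE line, against 3.11, 2.15, 1.63 and 2.62 CPM after KCl and 2.13, 1.496, 1.47 and 2.78 CPM at basal in the SA line. All 6 SE-line libraries lay above all 8 SA-line libraries, as in 18.6% of all genes tested. The difference was 8.75-fold at basal (log2 3.13 ± 0.25, edgeR, adjusted p = 1.96e-05) and 6.59-fold after KCl (adjusted p = 3.75e-05). Eomes was the one gene of the 40 that rose at both treatments.

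Related genes outside the 40 also differed between the lines. Of 28 further replication genes, 21 fell and 0 rose at each treatment, with a median log2 change of -1.61 at basal. Uhrf1, which recruits the maintenance DNA methyltransferase to replicated DNA, fell by 3.87 and Tk1, thymidine kinase, by 3.39. Of 30 further mitosis genes, 30 fell at each treatment, with a median of -3.31 at basal. Nuf2 of the kinetochore and the kinase Pbk fell by 3.72 and 4.13. Of 20 further progenitor genes, 19 passed the filter, 17 of which fell and 1 rose at each treatment. Lhx2, a homeobox factor of cortical progenitors, fell by 2.90, with 17.2 to 22.8 CPM in the SE line and 127 to 160 CPM in the SA line.

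Inhibitors of the cycle were mixed: 4 of 10 fell and 1 rose at each treatment, and 5 called of 10 is near the 45.8% and 48.1% of all genes. Cdkn2c, an inhibitor of CDK4 and CDK6 that is itself found in dividing progenitors, fell by 3.99 at basal, and the pocket protein gene Rbl1 by 3.15. Cdkn2d, an inhibitor of the same kinases that postmitotic neurons hold, rose by 0.68 (edgeR, adjusted p = 0.000544). It had 43.9 to 55.0 CPM in the SE line and 26.1 to 38.8 CPM in the SA line.

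Markers of other cell types moved with these genes between the lines. At basal, 7 of 7 oligodendrocyte lineage markers, 8 of 9 astrocyte markers, 7 of 8 microglia markers, 10 of 11 markers of meningeal fibroblasts, 5 of 6 measured endothelial and mural markers, 3 of 5 choroid plexus markers and 8 of 10 GABAergic markers fell in the SE line. After KCl the counts were 7 of 7, 7 of 9, 7 of 8, 11 of 11, 5 of 6, 0 of 5 and 8 of 10, where 25.2% of all genes fell at basal and 25.9% after KCl. Several genes count under more than one heading, since Sox9 stands in both the astrocyte and the further progenitor list, and Slc1a3, Fabp7, Hopx and Ptprz1 of the latter are also made by astrocytes. Of these, Hopx was higher in the SE line, with 23.65 to 32.16 CPM there and 13.03 to 18.74 CPM in the SA line.

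The summed oligodendrocyte lineage level was 123 to 147 CPM in the SE line and 570 to 738 CPM in the SA line. Pdgfra, the receptor of dividing oligodendrocyte precursors, fell by 4.67 at basal, with 3.29 to 4.87 CPM in the SE line and 86.3 to 118 CPM in the SA line. The astrocyte sum was 617 to 681 CPM in the SE line and 1246 to 2222 CPM in the SA line, the microglia sum 56.5 to 73.5 and 136 to 182 CPM, and the meningeal sum 56.4 to 105 and 245 to 635 CPM. The endothelial and mural sum was 25.0 to 36.6 CPM in the SE line and 193 to 764 CPM in the SA line, and the GABAergic sum 174 to 264 and 494 to 674 CPM. The choroid plexus sum overlapped, at 6.49 to 524 CPM in the SE line and 159 to 782 CPM in the SA line. Cldn5 and Cdh5, of endothelium, were at 0 in some library. Of 10 neuronal markers 3 rose at basal and 2 after KCl, a share near the 20.7% and 22.2% of all genes that rose, and 0 fell. Both measured blood genes rose, with a summed list level of 3.08 to 4.13 CPM in the SE line and 0.769 to 1.51 CPM in the SA line, where Hbb-bt and Alas2 were at 0 in some library. The part of other cell types in the difference between the lines was not tested.

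**Figure D3:**
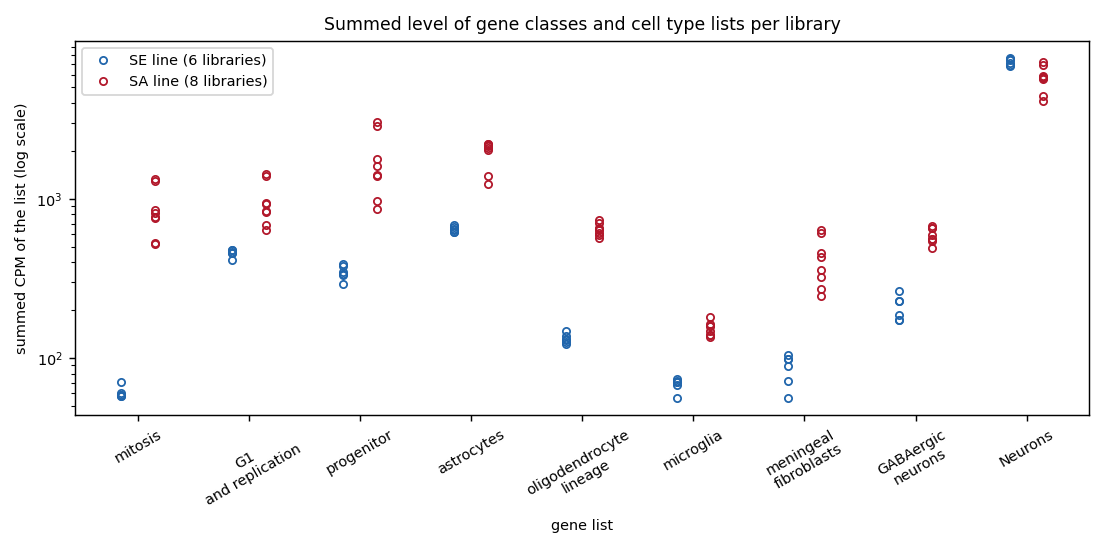
The y axis gives the summed CPM of each list on a log scale, one point per library, with the SE line left of the SA line. The 3 classes of cell cycle and progenitor genes and the 5 plotted lists of astrocytes, oligodendrocyte lineage, microglia, meningeal fibroblasts and GABAergic neurons lie lower in all 6 SE-line libraries, while neuronal markers overlap, at 6827 to 7685 CPM in the SE line and 4124 to 7204 CPM in the SA line.

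By class medians, libraries of the SE line were more alike in these genes than the more numerous ones of the SA line. The ratio of the highest to the lowest of the 6 SE-line libraries had a median of 1.31 for G1 and replication genes, 1.60 for mitosis genes and 1.503 for progenitor genes. In the SA line, over 8 libraries, the medians were 2.37, 2.78 and 2.15. The widest ratio of a single gene was 4.89 in the SE line, for Neurog2 at its low counts, and 4.13 in the SA line. The summed mitosis level was 57.7 to 70.3 CPM in the SE line and 523 to 1335 CPM in the SA line.

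Within the SA line the cultures kept an order across the genes. Wild-type culture 1 had both of its libraries above the other 6 in 36 of the 40 genes, a pattern that 20.2% of all genes tested show, and the exceptions were Ccne1, Hes1, Hes5 and Eomes. SA culture 1 had both of its libraries below the other 6 in 31 of 40 genes, against 12.6% of all genes tested. SA culture 2 and wild-type culture 2 lay between and near each other, with a median ratio over the 40 genes of 1.11 for SA culture 2 over wild-type culture 2. The 2 SA cultures differed from each other, with a median ratio of 1.40 for culture 2 over culture 1, as did the 2 wild-type cultures, with 1.63 for culture 1 over culture 2.

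Summed mitosis levels per library were 523 and 529 CPM in SA culture 1 and 753 and 812 CPM in SA culture 2, against 1335 and 1285 CPM in wild-type culture 1 and 847 and 771 CPM in wild-type culture 2, each after KCl and at basal. Among the other cell lists, markers of meningeal fibroblasts followed this order most widely: 8 of 11 had both wild-type culture 1 libraries above the other 6 and 7 had both SA culture 1 libraries below them, with sums of 271 and 245 CPM in SA culture 1 and 635 and 608 CPM in wild-type culture 1. Of 5 choroid plexus markers, 3 were highest in wild-type culture 1 and 4 lowest in SA culture 1 in the same sense. Their sums were 159 and 166 CPM in SA culture 1 and 486 and 488 CPM in SA culture 2, against 782 and 766 CPM in wild-type culture 1 and 258 and 207 CPM in wild-type culture 2. Neuronal markers ran the other way: 7 of 10 had both wild-type culture 1 libraries below the other 6, and 6 had both SA culture 1 libraries above them. Their sums were 6905 and 7204 CPM in SA culture 1 and 5702 and 5614 CPM in SA culture 2, against 4124 and 4411 CPM in wild-type culture 1 and 5872 and 5854 CPM in wild-type culture 2. Astrocyte markers were split, with 5 of 9 lowest and 2 highest in wild-type culture 1. The endothelial and mural sum is mostly that of Acta2, a smooth muscle actin, which had 207 and 170 CPM in SA culture 1 and 688 and 589 CPM in wild-type culture 1, and 2 of the 6 measured markers were highest in wild-type culture 1. The further progenitor genes, Lhx2, Slc1a3 and Fabp7 among them, summed to 2294 to 2740 CPM over all 8 SA-line libraries. Of the 19 that passed the filter, 5 had both wild-type culture 1 libraries above the other 6, against 20.2% of all genes. Both SA culture 1 libraries lay below the other 6 in 8 of the 19, against 12.6% of all genes. The part of other cell types in these differences was not tested.

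**Figure D4:**
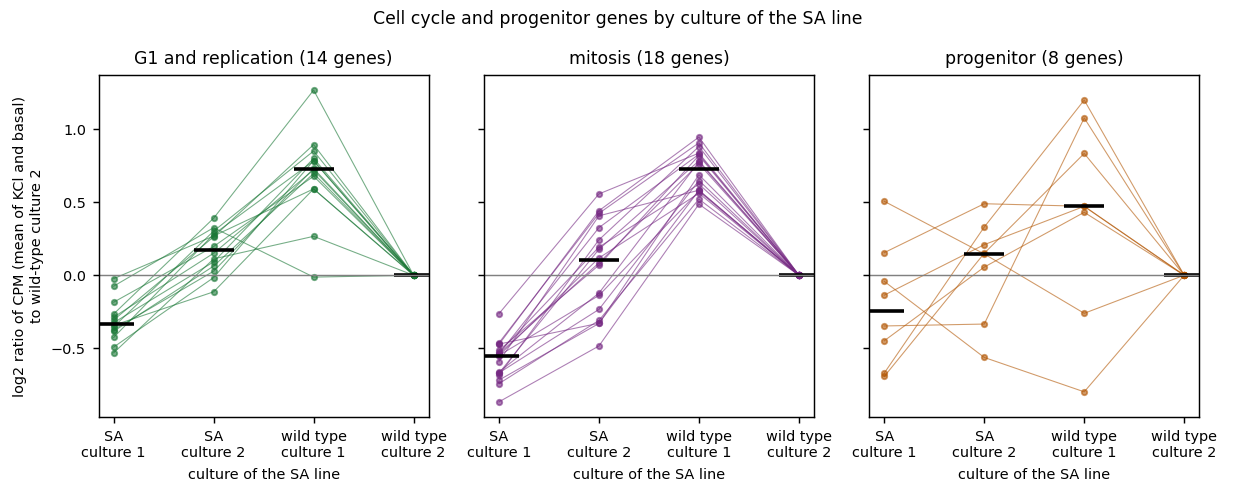
The y axis gives the log2 ratio of each gene's CPM, as the mean of the KCl and the basal library, to wild-type culture 2 of the SA line; lines join the values of one gene and black bars mark the class median. All 18 mitosis genes are highest in wild-type culture 1 and lowest in SA culture 1, and SA culture 2 lies around wild-type culture 2.

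Against this spread, edgeR called none of the 40 genes between a mutant and its wild type. In SA over its wild type, 0 genes were called at basal and 0 after KCl, as were 0% of all genes tested, by edgeR. At an unadjusted p under 0.05, 5 of 40 were counted at basal and 7 after KCl, against 7.21% and 11.5% of all genes. DESeq2 called 0 at basal and 1 after KCl, Kif11 (log2 -1.20, adjusted p = 0.00615, against 0.299 by edgeR), where it called 0.671% of all genes, and limma on log2(TPM + 0.5) called 0 and 0. Over 20 other settings the adjusted p of Kif11 after KCl ran between 0.00615 and 0.990. The mitosis genes had negative log2 values in 18 of 18 cases at both treatments, with a median of -0.54 at basal and -0.70 after KCl, while 8711 and 8702 of all 17732 genes were negative. Of 11 meningeal markers, 11 were also negative at both treatments, with and without wild-type culture 1, and their part in the result was not tested. The medians of G1 and replication genes were -0.46 and -0.49, and those of progenitor genes -0.31 and -0.30, while the median of all genes was 0.01 at each treatment.

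These medians depended on single cultures. Over the mitosis genes, the median ratio to wild-type culture 2 was 0.683 for SA culture 1 and 1.07 for SA culture 2. Leaving out wild-type culture 1 left the SA line with 1 wild-type library per treatment. The median log2 values at basal and after KCl were then -0.13 and -0.27 for mitosis genes. They were -0.01 and -0.08 for G1 and replication genes, and -0.07 and 0.05 for progenitor genes. Of the 18 mitosis genes 14 and 17 were then negative, and of the 40 genes 0 and 4 had an unadjusted p under 0.05, against 4.67% and 7.18% of all genes. Kif11 after KCl had 20.04 and 28.3 CPM in SA and 63.4 and 47.2 CPM in wild type, and Mki67 had 101 and 128 CPM in SA and 261 and 169 CPM in wild type, so that for both genes the groups did not overlap. Plk1 at basal did overlap, with 19.7 and 41.5 CPM in SA and 53.6 and 25.7 CPM in wild type. In SE over its wild type, with 1 wild-type library per treatment that is assumed to vary like the other groups, 0 genes were called at both treatments by edgeR, DESeq2 and limma, with 0 at an unadjusted p under 0.05 by each, and 0% of all genes tested were called by edgeR. The class medians lay between -0.10 and 0.21.

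Without pairing of libraries by number, KCl for 1 h changed none of these genes past the threshold by edgeR. In SE, in SA or in wild type (mean of 3 cultures with equal weight), 0 of 40 were called, against 1.66%, 0.846% and 1.41% of all genes tested. At an unadjusted p under 0.05 there were 2, 0 and 1, against 8.4%, 5.83% and 7.07% of all genes. DESeq2 called 1 in SE, which was Hes1, and 0 in SA and wild type, against 2.45%, 1.42% and 2.08% of all genes, and limma called 0 in each. With the replicate number as a block, edgeR called Hes1 in SE, Kif11 in SA, and Ccne2 and Hes1 in wild type. The median log2 change over the 40 genes was 0.09 in SE, -0.02 in SA and 0.03 in wild type. Neither mutant differed from its wild type in the KCl response of any of the 40 genes by edgeR, DESeq2 or limma, with 0 at an unadjusted p under 0.05 by each.

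Hes1 (chromosome 16, 30064384 to 30067796, plus strand), also an early response gene in several cell types, was the member with the lowest p after KCl. In the SE line it had 33.3 and 28.0 CPM in SE and 34.6 CPM in wild type after KCl, against 15.8 and 18.02 CPM in SE and 15.8 CPM in wild type at basal. All 3 KCl libraries were above all 3 basal libraries, which 4 of the 40 genes and 14.2% of all genes tested show. In the SA line it had 12.7 and 13.96 CPM in SA and 15.6 and 11.3 CPM in wild type after KCl, against 12.1 and 17.3 CPM in SA and 15.3 and 10.99 CPM in wild type at basal. There the treatments overlapped.

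For Hes1 in SE cultures the log2 change of KCl over basal was 0.86 ± 0.23, which did not pass (edgeR, adjusted p = 0.151), and DESeq2 gave 0.87 with an adjusted p of 0.0444. The value was also called without SA-line wild-type culture 1 (log2 0.86, adjusted p = 0.0449) and in a model with just the 6 SE-line libraries (log2 0.84, adjusted p = 0.00263). Over 19 other settings its adjusted p ran between 0.000487 and 0.777. In SA cultures the log2 change was -0.14 ± 0.23 (adjusted p = 1). The KCl response of the SE line minus that of the SA line was 1.05 ± 0.26 for Hes1 (edgeR, adjusted p = 0.591, where 0.107% of all genes were called). The difference between the lines thus did not pass in this model, which does not pair libraries by number. Over 18 other settings its adjusted p ran between 0.00142 and 1. Of the 18, 1 called it, namely that with the replicate number as a block (edgeR, adjusted p = 0.00142). Between the lines Hes1 rose after KCl (log2 1.28 ± 0.18, adjusted p = 0.000388) and did not differ past the threshold at basal (0.24 ± 0.18, adjusted p = 0.322).

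**Figure D5:**
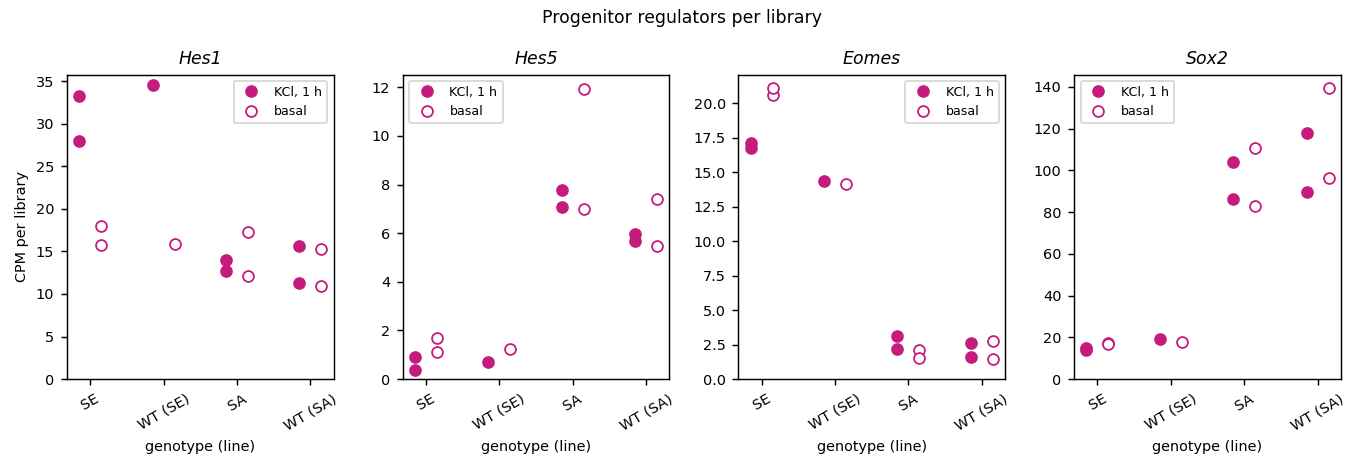
The y axis gives CPM per library for Hes1, Hes5, Eomes and Sox2, with a point per library, filled after KCl and open at basal, for SE, its wild type, SA and its wild type from left to right. Hes1 is higher after KCl in the 3 SE-line cultures, at 28.0 to 34.6 CPM against 15.8 to 18.02 CPM at basal, and Eomes and Sox2 separate the lines in opposite directions.

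Hes5, the relative of Hes1, had a negative log2 change after KCl in SE (-1.14 ± 0.45, edgeR, adjusted p = 0.468), with 0.901 and 0.371 CPM after KCl against 1.13 and 1.68 CPM at basal, which is few reads. Ccne2 had a log2 change after KCl of -0.51 ± 0.28 in SE, -0.28 ± 0.26 in SA and -0.60 ± 0.22 in wild type (edgeR, adjusted p = 0.787, 1 and 0.458). It had 2.70 and 3.57 CPM in SE, 7.95 and 9.82 CPM in SA and 2.61, 14.2 and 10.2 CPM in wild type after KCl, against 4.24 and 4.69 CPM in SE, 10.2 and 11.4 CPM in SA and 4.93, 20.4 and 12.8 CPM in wild type at basal. In wild type, 1 of 19 other settings called Ccne2, namely that with the replicate number as a block (edgeR, adjusted p = 0.00498). By the library numbers, 1 of the 40 genes, Ccne2, was lower after KCl in 7 of 7 cultures, as were 6.34% of all genes. Another 2 of the 40, Pcna and Mcm3, were higher in 7 of 7, as were 6.91% of all genes. Neither pattern was more frequent among the 40 genes than among all genes. Both counts were made after the values were seen, and the labels do not state that same-numbered libraries share a culture. Among the cycle inhibitors 1 gene rose after KCl in SE: Cdkn1b, which holds the cyclin E and CDK2 complex in check and is kept in postmitotic neurons, by 0.93 (edgeR, adjusted p = 0.0233). It had 113 and 109 CPM in SE after KCl against 64.8 and 51.6 CPM in SE at basal. The SE-line wild type was similar, with 105 CPM after KCl and 63.4 CPM at basal. The SA-line wild types had 156 and 122 CPM after KCl against 116 and 90.4 CPM at basal. The log2 change of Cdkn1b was 0.46 in SA and 0.53 in wild type of both lines (adjusted p = 0.557 and 0.139). Its response in SE minus that in the SE-line wild type was 0.20.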

How the data were processed

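RNA-seq libraries from 14 samples were used as deposited. Per the submitters' processing notes, the authors used kallisto 0.43.1 and the builds GRCm38 and mm10, and the values were deposited as estimated counts and TPM per gene and transcript. The total estimated count per library was 22625916 to 23096206, and CPM values were taken on library sizes scaled by TMM. kallisto splits reads that several transcripts share by estimation, so levels of genes with near-identical copies are uncertain. No source used here states strand handling, so reads of overlapping antisense genes cannot be told apart.

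The deposited estimated counts per gene symbol were rounded. They were filtered with filterByExpr (17732 genes), scaled by TMM and fitted with edgeR 4.0.16 (R 4.3.3, quasi-likelihood) over 8 groups of genotype, line and treatment, leaving 6 residual degrees of freedom. The line comparison takes the mean of mutant and wild-type group means. Benjamini-Hochberg adjustment ran over all genes tested, with a threshold of 0.05. DESeq2 1.42.0, limma 3.58.1 on log2(TPM + 0.5) of the deposited TPM values, other scaling and filters, and left-out libraries were tried. The edgeR step was tested on simulated data.

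The 40 genes, the other lists and the tests were chosen with earlier results of these data known. Of the other lists, at most the 4 genes with the lowest p in a comparison were named with values. Promoters came from RefSeq (GRCm38.p6), matched by symbol. Gene coordinates are those of the GRCm38 annotation.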

Additional observations from a re-analysis of the deposited data

How the results depend on the processing

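Groups of 1 or 2 libraries limit what a missed threshold can mean, and low counts limit Hes5 and Neurog2. The counts of called genes between the lines stayed within 35 to 39 of 40 over the settings tried. Leaving out single libraries gave 37 to 37 at basal and 36 to 39 after KCl, and 0 to 0 in every other comparison. Counts of 0 moved in these cases. DESeq2 called 1 gene in SA over wild type after KCl (Kif11) and 1 in KCl over basal of SE (Hes1). Without SA-line wild-type culture 1, and with libraries of the line alone, 1 (Hes1) was called in KCl over basal of SE. With the replicate number as a block, 1 (Hes1) was called in KCl over basal of SE (adjusted p = 0.000487), 1 (Kif11) in SA, 2 (Ccne2, adjusted p = 0.00498, and Hes1) in wild type, and 1 (Hes1, adjusted p = 0.00142) in the response of the SE line minus that of the SA line, and the cause was not tested. The block changed no other count of 0, and left the lines at 37 and 38. Basal and KCl libraries of one number deviated together in SA (r = 0.42) and in wild type of the SA line (r = 0.67) but not in SE (r = -0.05), so the numbers were not taken as pairs. No paired analysis was possible for SE over wild type because its wild type has replicate 1 only. Same-numbered SA and wild-type libraries deviated in opposite directions (r = -0.31 and -0.28), and a crossed pairing, added after seeing the data, called 0 at basal and 0 after KCl. Without replicate 2 of basal SA, the log2 change of Hes1 after KCl in SA was 0.14 in place of -0.14, and over all single left-out libraries it ran between -0.38 and 0.14. Among single-gene values, 14 lost their call under a setting, all of them Pcna, Neurog2 or Mcm7 between the lines. On the TPM scale the median of all genes shifted to -0.16 at basal and -0.11 after KCl between the lines, and to -0.11 in SA over wild type after KCl, and against these shifts the mitosis medians were -3.40, -3.34 and -0.77.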
